A study of Homo sapiens with 6 samples.

Results

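The abundant long non-coding RNAs (lncRNAs) of PC-3 cells are described here: long transcripts that encode no known protein and that reach the level of many messages. They were chosen by their measured level: a gene was a member if the count table typed it lncRNA and its mean over all 6 libraries was 10 or more CPM, which scales reads to the column's sum. Symbols beginning with SNHG or ending in -DT, and GAS5, ZFAS1, EPB41L4A-AS1, DANCR and MEG8, were left out. This gave 159 members of 7840 lncRNAs and 30651 genes listed, and 27 lncRNAs of the same abundance were left out by their symbol. Their levels are a description, while the difference between the groups was not part of the rule. Just inside the minimum were MIR210HG at 10.15, LINC01123 at 10.11 and RP11-38M8.1 at 10.03 CPM, and just outside were KCNQ1OT1 at 9.75, HHLA3 at 9.73 and RP11-159D12.2 at 9.69 CPM.

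PC-3 is an established human line grown from prostate cancer that had spread to bone. The Ctrl group and the MTA1 group held 3 libraries each, and the columns of the latter carry a prefix that is usual for a short hairpin RNA. MTA1 is a subunit of the NuRD complex, which remodels and deacetylates chromatin. Both groups are of PC-3 cells, and the labels name lentivirus and stable clones. They do not give the number of hairpins or clones, or whether libraries came from separate cultures, so the p-values reflect only how these libraries vary, and that variation may be technical. The question was which of these RNAs differ between cells with less MTA1 and their control.

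LncRNAs work as the RNA itself or through the act of their transcription. MALAT1 sits in nuclear speckles, and NEAT1 is the scaffold of paraspeckles, bodies that hold RNA-binding proteins in the nucleus. Others act on the gene next door, bind proteins in the cytoplasm, or are the primary transcripts from which miRNAs are cut. Many carry only a clone name and overlap a coding gene, so that their reads may belong to a message.

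Depth was 31726013 to 33849262 counts per Ctrl library and 29909172 to 30938820 per MTA1 library. MTA1 fell from 40 ± 1.47 to 17.4 ± 0.660 CPM (mean ± SD, n = 3), to 43.4% of its control level. All CPM values from here on use TMM-scaled library sizes, and log2 fold changes are of the MTA1 group over Ctrl, ± SE, from edgeR's quasi-likelihood test. The epithelial keratins KRT8 and KRT18 stood at 1886 and 1343 CPM in Ctrl and the androgen target KLK3 had at most 1 count in any library. The leukocyte gene PTPRC had 0 to 3 counts. The summed level of 8 fibroblast markers was 77.3 to 85.7 CPM in Ctrl and 117 in each MTA1 library, with 1 marker higher (THY1) and 2 lower, and its part in what follows was not tested. In bulk RNA, a change in the make-up of the cells and a change of RNA per cell cannot be told apart.

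By position in GENCODE 29, 20 members held 34 annotated miRNA genes on their own strand, of which 29 were in the RefSeq table (GRCh38.p14). Some of these miRNAs are shown because they share a seed, bases 2 to 8, given in capitals, which pairs with target messages. Of the 6 hosts called lower in the MTA1 group, 3 carry these miRNAs with the seed GAGGUAG.
let-7a-5p of MIRLET7BHG (chr22:46112752-46112773, plus strand): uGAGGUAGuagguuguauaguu
let-7b-5p of MIRLET7BHG (chr22:46113691-46113712, plus strand): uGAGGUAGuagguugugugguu
let-7c-5p of MIR99AHG (chr21:16539838-16539859, plus strand): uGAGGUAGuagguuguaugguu
miR-4458 of MIR4458HG (chr5:8460933-8460951, plus strand): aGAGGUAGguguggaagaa
H19, MIR23AHG and TTC28-AS1, also called lower, carry miRNAs with other seeds only. Hosts called higher carry miRNAs with other seeds too, and these stand for the hosts named most often below.
miR-210-3p of MIR210HG (chr11:568112-568133, minus strand): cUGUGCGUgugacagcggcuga
miR-22-3p of MIR22HG (chr17:1713914-1713935, minus strand): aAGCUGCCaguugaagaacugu
miR-34a-5p of MIR34AHG (chr1:9151735-9151756, minus strand): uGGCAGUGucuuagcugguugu
miR-193b-3p of MIR193BHG (chr16:14304017-14304038, plus strand): aACUGGCCcucaaagucccgcu
Of 2370 mature human miRNAs in the table, 11 (0.464%) have the seed GAGGUAG, and 4 of these lie in 3 members. Mature miRNAs were not measured here, so only the level of the host is known.

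The promoters of MIR210HG and GATA2-AS1 are shown because these had the largest rise and the largest fall of the members. Both genes were under 10 CPM in 1 of the groups. Each promoter window runs from 250 bases before to 50 after the start that RefSeq gives (GRCh38.p14). Capitals mark matches on either strand to the motifs searched, which were ACGTG and GCGTG (the core of the hypoxia response element), TGACTCA (AP-1), TGACGTCA (CRE), CACGTG (E-box, which contains ACGTG) and CCAAT.
MIR210HG (chr11:568408-568707, minus strand): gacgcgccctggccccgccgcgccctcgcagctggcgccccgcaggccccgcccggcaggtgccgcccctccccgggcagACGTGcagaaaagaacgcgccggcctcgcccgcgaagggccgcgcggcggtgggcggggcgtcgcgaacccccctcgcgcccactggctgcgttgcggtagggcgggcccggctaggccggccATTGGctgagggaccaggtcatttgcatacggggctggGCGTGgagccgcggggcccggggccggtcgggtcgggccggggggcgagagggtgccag
GATA2-AS1 (chr3:128488953-128489252, plus strand): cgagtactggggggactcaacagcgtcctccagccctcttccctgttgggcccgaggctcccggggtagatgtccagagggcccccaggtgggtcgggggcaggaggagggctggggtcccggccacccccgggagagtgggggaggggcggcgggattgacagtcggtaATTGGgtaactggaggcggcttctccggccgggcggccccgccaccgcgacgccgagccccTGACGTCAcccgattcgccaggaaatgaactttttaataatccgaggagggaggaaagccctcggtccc
The MIR210HG window held ACGTG at -170 and GCGTG at -9 from the start, and CCAAT on the other strand. The GATA2-AS1 window held the palindrome TGACGTCA at -19 and CCAAT on the other strand. A match is a description of letters and not a bound site.

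Promoters were found for 90 members, 75 of them under the symbol of the count table. ACGTG or GCGTG lay in 61 of these (67.8%), against 52.4% of 27305 genes in the promoter table. By call, 17 of 23 higher (73.9%), 35 of 51 lower (68.6%) and 9 of 16 uncalled members (56.2%) held either core. Each of these sets, the uncalled included, was above the share of all genes. Base composition was not matched between the members and all genes. Taken alone, ACGTG lay in 37.8% of the members' windows against 24.9%, and GCGTG in 54.4% against 40.6%. CCAAT lay in 42.2% against 39.7%, TGACTCA in 7.78% against 6.05%, TGACGTCA in 4.44% against 2.25% and CACGTG in 7.78% against 8.77%.

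More of the members were lower than higher when MTA1 was reduced. Of the 159 members, all of which were tested, 120 (75.5%) passed an adjusted p under 0.05 in edgeR, 41 higher and 79 lower. The background was 58.1% of all 15423 tested genes (29.5% higher, 28.6% lower) and 43.4% of 1862 tested lncRNAs (341 higher, 467 lower). Of the 1676 tested lncRNAs below 10 CPM, 290 were higher and 379 lower, with a median log2 fold change of -0.05. More lower than higher calls were thus not particular to the members. Among the 7433 genes of any type with the same mean level of 10 CPM or more, 72.5% passed (36.1% higher and 36.3% lower), so the total share of the members was near that of equally abundant genes. By direction, 25.8% of the members were higher and 49.7% lower. Their median log2 fold change was -0.14, against 0.00 for all genes tested, and the median size of the change was 0.33, against 0.29 for all genes tested and 0.24 for genes of the same level.

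A member that reached the minimum through 1 group alone had to differ between the groups, so those members are counted apart. Of the 159, 21 had under 10 CPM in the MTA1 group only, 20 of them called lower, while 5 were under it in Ctrl only, all called higher. In the 133 members at or above 10 CPM in both groups, 36 (27.1%) were higher and 59 (44.4%) lower. Libraries of the groups did not overlap in 122 members (76.7%), against 62.7% of all tested genes and 74.9% of genes of the same level. At least 2-fold and past the threshold were 12 members, 3 higher and 9 lower, while the background was 6.19% of all genes and 2.48% at this level. Of these 12, 7 (2 higher and 5 lower) were under 10 CPM in 1 of the groups, and 5 (1 higher and 4 lower) reached it in both. Of the called members, 24 differed by less than 1.2-fold, and with a test that asks for more than 1.2-fold 71 members remained, 20 higher and 51 lower.

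**Figure D1:**
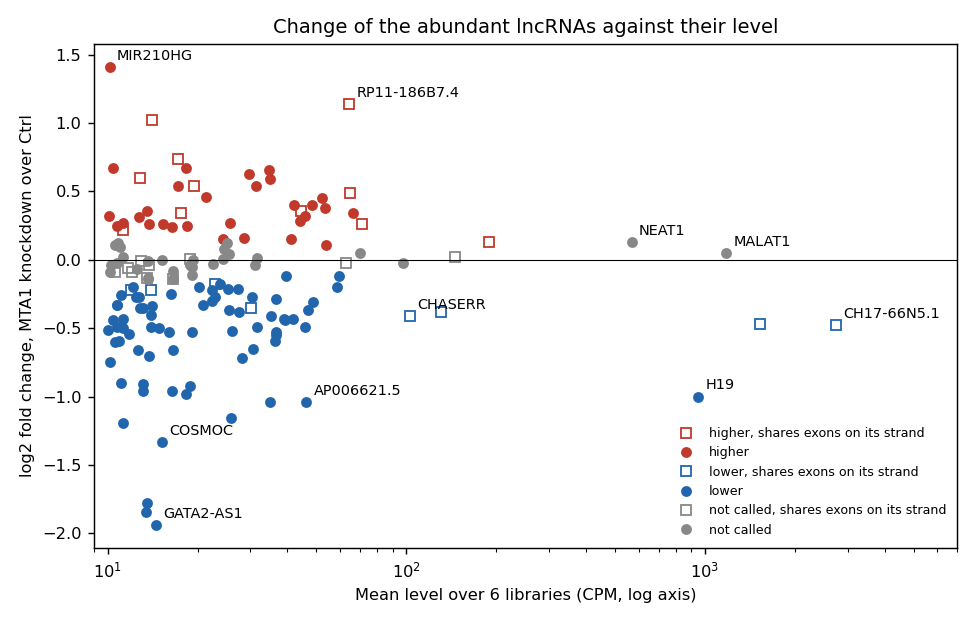
Each point is 1 of the 159 abundant lncRNAs, with its mean level over 6 libraries in CPM (log axis) against its log2 fold change (MTA1 group over Ctrl). Colours give the call, and open squares mark lncRNAs whose exons overlap a coding gene on the same strand; MIR210HG at 1.41 and GATA2-AS1 at -1.94 are the extremes.

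A handful of members held most of the reads. Ctrl libraries gave 1.21%, 1.22% and 1.18% of their counts to the members, and MTA1 libraries gave 1.03%, 1.05% and 1.02%. Every Ctrl library was above every MTA1 library, a difference of -0.17 percentage points (exact permutation test, 2-sided, p = 0.1, the smallest that 3 against 3 libraries allow). The 5 most abundant members held 64.0% to 65.2% of the members' counts in the Ctrl libraries and 59.1% to 60% in the others. Without these 5, the other 154 took 0.425% of all counts in Ctrl and 0.418% in the MTA1 group, a difference of -0.00754 percentage points. The 2 most abundant, CH17-66N5.1 and RP11-197N18.2, share 64.1% and 97.5% of their exon bases with coding genes on their strand. Without these 2, the members took 0.715% in Ctrl and 0.666% in the MTA1 group, a difference of -0.0497 percentage points. Depth was lower in each MTA1 library than in any Ctrl library, and its part was not tested.

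**Figure D2:**
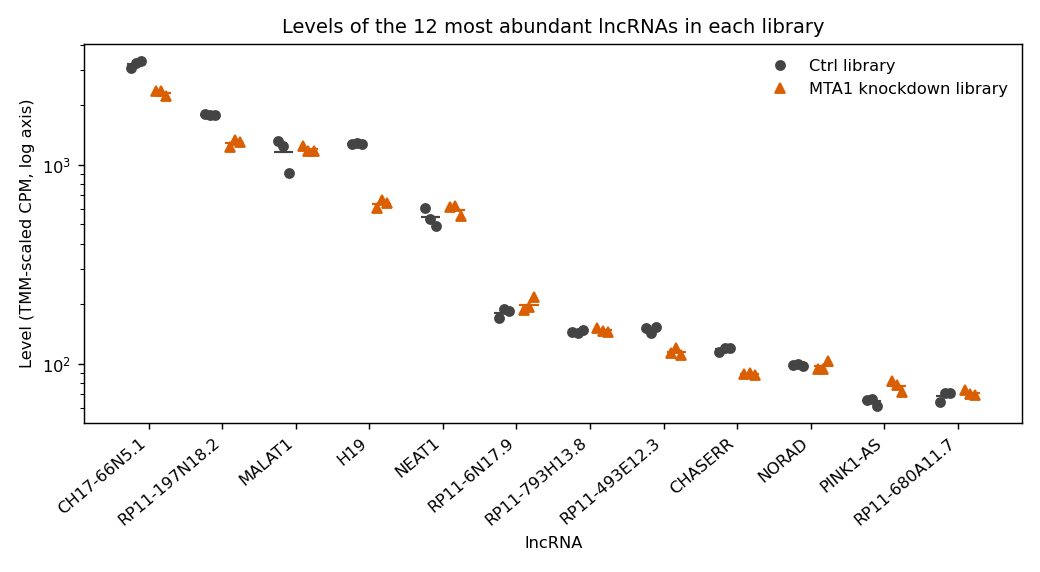
Level of the 12 most abundant lncRNAs in each library, in TMM-scaled CPM on a log axis, with circles for Ctrl, triangles for the MTA1 group and short lines for the mean of 3 libraries. H19 parts the groups most widely, at 1273 and 636 CPM, while MALAT1 in Ctrl spans 906 to 1318 CPM.

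Nuclear bodies come first by role. MALAT1 had 1318, 1243 and 906 CPM in the Ctrl libraries, in the order of their numbers as in all that follows, and 1235, 1175 and 1174 in the MTA1 group. The groups overlapped, and the lowest value was that of Ctrl replicate 3. MALAT1 did not pass (0.05 ± 0.084, edgeR adjusted p = 0.65), and without Ctrl replicate 3 its value turned to -0.10 (adjusted p = 0.080). NEAT1 had 608, 530 and 494 CPM in Ctrl and 612, 618 and 550 in the MTA1 group. Its highest values were in the MTA1 group, but 1 Ctrl library lay among them. NEAT1 stood at 0.13 ± 0.060 (adjusted p = 0.079), and its call changed with the setting: among others, it passed as higher without Ctrl replicate 1 (0.20, adjusted p = 0.0034), without MTA1 replicate 3 (0.18, 0.0069), with library-size scaling (0.19, 0.0096) and with no filter (adjusted p = 0.0045). MIAT, a nuclear lncRNA below the member level, stood at 0.415 and 0.700 CPM and did not pass (0.75, adjusted p = 0.052). By FPKM, which allows for length, MALAT1 stood at 113 and NEAT1 at 20.6 in Ctrl.

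Genes of the proteins in these bodies went in both directions. Beside the counts that follow, 72.5% of all genes of 10 CPM or more passed, 36.1% higher and 36.3% lower. Of 15 paraspeckle proteins tested, 4 were higher and 7 lower, with a median log2 fold change of -0.07. PSPC1 (paraspeckle component 1) fell from 195 to 110 CPM (-0.83), SFPQ from 1352 to 858 CPM (-0.66), and NUDT21, a cleavage factor, from 69.8 to 48.3 CPM (-0.53). NONO, the partner of SFPQ, rose from 800 to 923 CPM (0.21). Of 9 speckle proteins 3 were higher and 2 lower, with PNN at 0.33, SRRM1 at 0.37 and SRRM2 at 0.17 up and SRSF3 at -0.36 down. Of the 11 genes for RNase P, RNase Z and METTL16, which act on the end of MALAT1, 2 were higher and 3 lower, and ELAC2, the RNase Z, rose (0.27) while RPP25 fell (-0.54).

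H19, the maternally expressed RNA of an imprinted locus on chromosome 11 and the host of miR-675, was the member of the 12 most abundant with the largest change. It had 1271, 1279 and 1269 CPM in Ctrl and 604, 662 and 643 in the MTA1 group. The groups were far apart, with a spread of 5.45 (SD) in Ctrl and 29.4 in the MTA1 group. The change was -1.0 ± 0.042 (edgeR adjusted p = 1.5e-13). IGF2, the paternally expressed gene of this locus, fell from 97.8 to 88.8 CPM (-0.14 ± 0.056, adjusted p = 0.042), with libraries that overlapped.

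Of 15 tested RNAs known for work on chromatin or at imprinted and growth gene loci, 6 were higher and 4 lower, with a median of 0.08. Among all tested lncRNAs 43.4% passed. Members on this list of 15 were H19, FTX, JPX, HOTAIRM1 and PVT1. FTX, from the X inactivation centre, had 27.4, 24.7 and 24.4 CPM in Ctrl and 37.9, 38.0 and 35.4 in the MTA1 group. All MTA1 libraries were above all Ctrl libraries, and FTX rose (0.54 ± 0.056, adjusted p = 7.9e-08). JPX, from the same region, did not pass (-0.11 ± 0.055, adjusted p = 0.097). HOTAIRM1, transcribed from the HOXA cluster, had 30.8, 31.6 and 31.2 CPM in Ctrl and 22.5, 24.1 and 25.5 in the MTA1 group, and fell (-0.38 ± 0.055). HOXA11-AS of the same cluster fell too (-0.22 ± 0.057), but its call ended on both FPKM scales (adjusted p of 0.051 and 0.052). Below the member level, HOXA-AS2 (-0.47) and HOTAIR (-0.76) were lower, and MIR503HG (2.07), FIRRE (0.75), KCNQ1OT1 (0.28) and TUG1 (0.19) were higher. TUG1 reached the CPM minimum but is not typed lncRNA in the table.

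PVT1, a cancer-linked RNA next to the growth gene MYC, had 49.8, 52.9 and 52.4 CPM in Ctrl and 55.3, 55.7 and 56.7 in the MTA1 group. The groups did not overlap, but the rise was small (0.11 ± 0.045, adjusted p = 0.040). It ended with DESeq2 (adjusted p = 0.10), with no filter (0.074) and when any library but Ctrl replicate 2 was left out, with the highest at 0.20. MYC rose from 218 to 256 CPM (0.23 ± 0.038). Of 6 PRC2 genes, whose complex binds many lncRNAs, 1 was higher (EED, 0.18) and 4 were lower, among them RBBP7 from 157 to 78.3 CPM (-1.0), RBBP4 (-0.29) and SUZ12 (-0.39), while EZH2 stood at 0.02. Among all genes of 10 CPM or more 72.5% passed, 36.1% higher and 36.3% lower.

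Some members are known for, or lie next to, a single gene. CHASERR, which is transcribed beside CHD2 and is known to hold it down, had 114, 120 and 120 CPM in Ctrl and 88.6, 89.7 and 87.5 in the MTA1 group. Only 4.17% of its exon bases are shared with a coding gene on its strand. CHASERR was lower in each MTA1 library (-0.41 ± 0.041, adjusted p = 4.6e-08). CHD2, a chromatin remodeller, rose from 49.3 to 68.8 CPM (0.48 ± 0.044). GATA2-AS1 had 24.0, 22.8 and 23.0 CPM in Ctrl and 5.09, 6.24 and 6.90 in the MTA1 group. This was the largest fall of the members (-1.94 ± 0.082, adjusted p = 1.6e-13), but GATA2-AS1 reached the CPM minimum only through Ctrl. GATA2, the transcription factor gene whose body GATA2-AS1 overlaps on the opposite strand, fell from 30.1 to 19.1 CPM (-0.66). COSMOC, with 64.9% of its exon bases opposite to exons of ELP2, had 23.2, 21.6 and 21.1 CPM in Ctrl and 9.48, 9.65 and 7.09 in the MTA1 group. It fell by 1.33 on the log2 scale (SE 0.086), and it too reached the CPM minimum only through Ctrl. ELP2, an Elongator subunit, was also called lower, from 81.4 to 73.8 CPM (-0.14 ± 0.043, edgeR adjusted p = 0.0082).

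FENDRR, which starts next to the transcription factor gene FOXF1, fell from 21.8 to 11.2 CPM (-0.96 ± 0.060), and FOXF1, at 2.11 and 1.59 CPM, did not pass (-0.41 ± 0.19). OLMALINC, a neighbour of the desaturase gene SCD, rose (0.27 ± 0.059), as SCD did (0.39). CRNDE, a cancer-linked lncRNA, had 44.3, 45.8 and 44.6 CPM in Ctrl and 32.5, 32.5 and 34.8 in the MTA1 group. All of its MTA1 libraries were lower (-0.43 ± 0.050), and its neighbour IRX5, a homeobox gene, fell as well (-0.68). EMSLR, named for keeping the message of E2F1 stable, was lower (-0.26 ± 0.093, adjusted p = 0.021), and E2F1 was too (-0.77). The call of EMSLR ended without Ctrl replicate 3 (adjusted p = 0.20), without MTA1 replicate 2 (0.13), with library-size scaling (0.081) and on both FPKM scales (0.20 and 0.21).

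Cytoplasmic and cancer-linked RNAs went each way. NORAD binds the RNA-binding protein PUM2 through many copies of a short element, and the stretch shown holds a pair of them, with matches to TGTANATA in capitals (bases 1432 to 1468 of the GENCODE 29 transcript of 5339 bases).
NORAD: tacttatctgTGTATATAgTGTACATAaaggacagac
The transcript held 15 matches in all. NORAD had 98.2, 99.0 and 97.5 CPM in Ctrl and 93.8, 93.8 and 103 in the MTA1 group. The groups overlapped, and no difference passed (-0.02 ± 0.045, adjusted p = 0.75). PUM2 (-0.10) did not pass either, and of the other listed partners TOP1 rose (0.65) while RBMX (-0.26) and KHDRBS1 (-0.11) fell.

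LUCAT1, a stress-linked lncRNA, had 28.1, 26.8 and 28.4 CPM in Ctrl and 41.8, 48.3 and 35.6 in the MTA1 group. It rose (0.59 ± 0.077, adjusted p = 1.6e-06), with a wider spread in the MTA1 group. OIP5-AS1, known to bind miRNAs and the protein HuR, fell from 33.8 to 26.6 CPM (-0.35 ± 0.057). CYTOR (0.08 ± 0.053, adjusted p = 0.18) and MIR4435-2HG (-0.04 ± 0.054, adjusted p = 0.54), which are copies of one another and can share reads, did not pass, though CYTOR did with library-size scaling (0.15, adjusted p = 0.019). LINC00511, below the member level, did not pass (-0.24). Of 7 tested RNAs in this list, 1 was higher and 2 were lower.

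RPPH1, the RNA of RNase P, had 36.3, 39.9 and 40.8 CPM in Ctrl and 43.8, 44.0 and 42.1 in the MTA1 group. The groups did not overlap (0.15 ± 0.052, adjusted p = 0.018), but the call ended without Ctrl replicate 1 (0.09, adjusted p = 0.15) or MTA1 replicate 2 (0.063). Among 7 tested RNA parts of enzymes and small structured RNAs, the telomerase RNA TERC rose too (1.43), at 0.383 and 1.04 CPM. Prostate cancer lncRNAs were nearly silent: of 15 listed, 2 were tested, PCAT7 fell (-0.87, at 1.18 and 0.646 CPM), SOCS2-AS1 did not pass, and PCA3, PCGEM1 and SCHLAP1 had at most 1 count in any library.

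The hosts of miRNAs split by direction. Of the 20 members that hold a miRNA gene, 10 were higher, 6 lower and 4 not called. Beside this stand 75.5% called of all members, 25.8% higher and 49.7% lower, and 72.5% called of all genes of 10 CPM or more. MIR210HG, known to be raised by low oxygen, had 5.53, 5.22 and 5.68 CPM in Ctrl and 14.6, 14.9 and 14.3 in the MTA1 group. This was the largest rise among the members (1.41 ± 0.076, adjusted p = 4.5e-12), and it reached the CPM minimum only through the MTA1 group. Of 4 tested members of the list of lncRNAs known from hypoxia, only MIR210HG was higher, H19 was lower, and NEAT1 and MALAT1 did not pass.

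MIR22HG, the host of miR-22, had 27, 28.2 and 24.8 CPM in Ctrl and 41.2, 42.0 and 43.5 in the MTA1 group. It rose (0.66 ± 0.055, adjusted p = 2.9e-09), and its libraries did not overlap. MIR34AHG, the host of miR-34a and known as a p53 target, had 41.1, 40.1 and 43.1 CPM in Ctrl and 53.2, 54.9 and 56.1 in the MTA1 group, and rose (0.40 ± 0.048). MIR193BHG, the host of miR-193b and miR-365a, rose from 40.5 to 50.7 CPM (0.32 ± 0.047). PURPL, another known p53 target, rose too (0.26 ± 0.064). Of 5 tested lncRNAs of the p53 list, these 2, MIR34AHG and PURPL, were higher and none was lower at this threshold, while NEAT1, LINC-PINT (0.03) and LNCTAM34A (0.05) did not pass.

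All 3 hosts of the GAGGUAG seed were lower, as were 49.7% of all members, and whether the seed has a part was not tested. MIRLET7BHG had 12.1, 11.3 and 12.8 CPM in Ctrl and 8.50, 9.30 and 8.96 in the MTA1 group (-0.44 ± 0.076, adjusted p = 5.5e-05). It reached the CPM minimum only through Ctrl. MIR99AHG had 20.1, 19.2 and 21.7 CPM in Ctrl and 12.7, 13.8 and 12.1 in the MTA1 group (-0.66 ± 0.068, adjusted p = 5.8e-08). MIR4458HG had 43.4, 39.6 and 38.3 CPM in Ctrl and 35.2, 30.1 and 26.2 in the MTA1 group (-0.41 ± 0.076, adjusted p = 1.3e-04). No library of 1 group lay within the other in these hosts. MIR23AHG, the host of miR-23a, miR-27a and miR-24, fell from 30.8 to 21.6 CPM (-0.52 ± 0.061). Over the 9 members named as hosts by their symbol, 4 were higher, 4 lower and 1 not called.

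**Figure D3:**
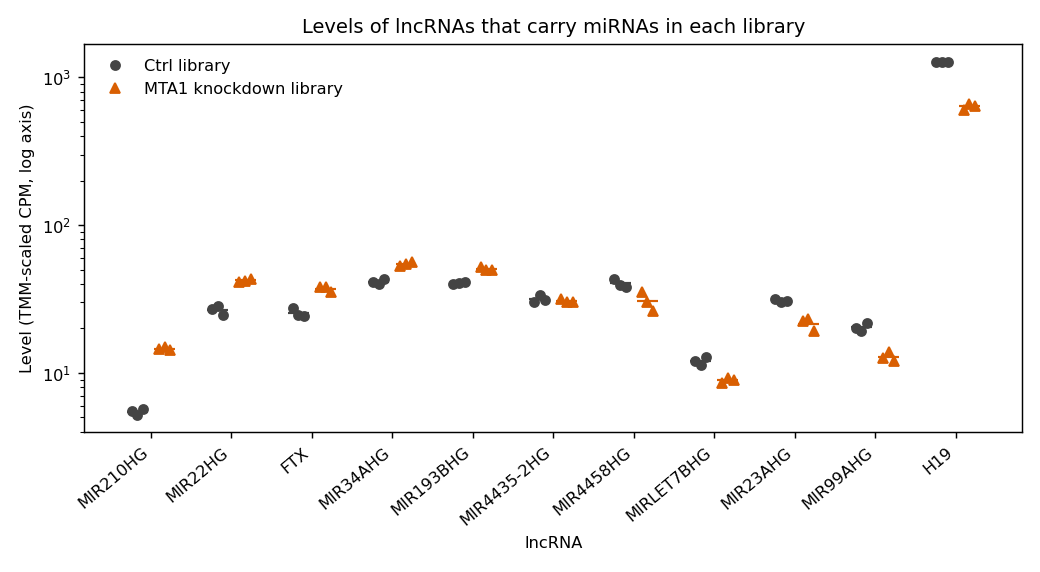
Level of 11 lncRNAs that carry miRNAs, in TMM-scaled CPM on a log axis, for each Ctrl library (circles) and MTA1 library (triangles), with lines for the mean of 3. They are ordered from MIR210HG, at 5.48 and 14.6 CPM, to H19, at 1273 and 636 CPM.

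Antisense members, named for the gene on the other strand, were mostly lower. Of 45, 10 were higher, 29 lower and 6 not called (86.7% called), with a median of -0.31. Of all members, 75.5% were called, 25.8% higher and 49.7% lower, with a median of -0.14. The members named LINC had a median of -0.30, so this lean was not particular to antisense members. Of the 45 antisense members, 36 had their sense gene among the tested genes. Both were called in 14 pairs, in the same direction in 8 and in opposite directions in 6, and in 17 pairs only the antisense RNA was called. Pearson's r of the log2 fold changes over the 36 pairs was 0.23. Since the strand setting of the counting is not given, reads of the strands may be mixed where exons overlap.

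Among pairs with the same direction were SLC16A1-AS1 (0.40), whose sense gene SLC16A1, a lactate transporter, rose from 63.5 to 87.7 CPM (0.46), and MRPL20-AS1 (-0.43), opposite to the ribosomal protein gene MRPL20 (-0.33). WAC-AS1 (-0.44) and WAC (-0.38), ZNF232-AS1 (-0.96) and ZNF232 (-0.54), and TTC28-AS1 (-0.50) and TTC28 (-0.23) fell together. MZF1-AS1 (0.46) and MZF1 (0.30) rose together. In opposite directions were PINK1-AS (0.26) and PINK1, a mitochondrial kinase (-0.60), GABPB1-AS1 (0.45) and GABPB1 (-0.33), PSMA3-AS1 (0.36) and the proteasome gene PSMA3 (-0.22), OTUD6B-AS1 (-0.31) and OTUD6B (0.81), PXN-AS1 (-0.12) and PXN (0.18), and PCBP1-AS1 (-0.22) and PCBP1 (0.12). PINK1-AS shares 9.61% of its exon bases with DDOST on its own strand, which rose as well (0.29).

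In other pairs the antisense RNA moved while the sense gene did not pass. PRKAG2-AS1 had 37.2, 34.4 and 34.2 CPM in Ctrl and 19.8, 22.3 and 22.0 in the MTA1 group. It fell (-0.72 ± 0.058), while PRKAG2 stood at 9.03 and 9.08 CPM (0.009). SCAMP1-AS1 (-0.70) and SCAMP1 (-0.10), TMEM161B-AS1 (-0.53) and TMEM161B (0.14), and DNAH17-AS1 (-0.55) and DNAH17 (-0.17) showed the same order. THAP9-AS1 rose (0.74 ± 0.076) while THAP9, at 0.954 and 0.770 CPM, did not pass (-0.30). MAPKAPK5-AS1, PAX8-AS1 and NIFK-AS1, whose sense genes did not pass, and PXN-AS1 and PCBP1-AS1 each lost their call under 5 or more of the alternatives, and their size was at most 0.22.

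The largest rises after MIR210HG were of mixed kinds. RP11-186B7.4 had 40.7, 39.8 and 39.1 CPM in Ctrl and 84.6, 88.5 and 91.3 in the MTA1 group. No library of 1 group came near the other (1.14 ± 0.046, adjusted p = 8.4e-14). It shares 48.0% of its exon bases with coding genes on its strand. Of these, EIF4A1 was called higher (0.58, at 14.7 and 21.9 CPM) and the readthrough gene SENP3-EIF4A1, at 1028 and 998 CPM, did not pass. Reads of shared bases can be given to any of these genes, so the levels and changes of each are uncertain. SUGT1P4-STRA6LP-CCDC180, a readthrough transcript, rose from 9.24 to 18.7 CPM (1.02 ± 0.070). MUC20-OT1 (0.67 ± 0.060), RP11-315O6.1 (0.67 ± 0.080), RP11-190A12.10 (0.63 ± 0.062), RP11-618G20.1 (0.60 ± 0.072), THAP9-AS1, MIR22HG and LUCAT1 completed the 10 highest. Like MIR210HG, SUGT1P4-STRA6LP-CCDC180 and RP11-315O6.1 reached the CPM minimum only through the MTA1 group.

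The largest falls after GATA2-AS1 included several clone-named genes. CTA-384D8.34 had 20.8, 21.5 and 21.4 CPM in Ctrl and 5.87, 6.18 and 5.67 in the MTA1 group (-1.84 ± 0.069, adjusted p = 3.1e-14). CH17-360D5.2 had 21.0, 22.8 and 19.5 CPM in Ctrl and 6.27, 5.33 and 6.86 in the MTA1 group (-1.78 ± 0.086, adjusted p = 1.0e-12). By GENCODE 29, neither overlaps a coding gene that was tested. FLJ16779 (-1.19 ± 0.095), CTD-2015H6.3 (-1.16 ± 0.057), DLGAP1-AS1 (-1.04 ± 0.058) and CD27-AS1 (-0.98 ± 0.060) fell too, and with COSMOC, H19 and AP006621.5 they made up the 10 lowest. Among these, GATA2-AS1, CTA-384D8.34, CH17-360D5.2, FLJ16779 and COSMOC reached the CPM minimum only through Ctrl.

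AP006621.5, now named GATD1-DT for its start beside GATD1, had 69.0, 55.5 and 63.7 CPM in Ctrl and 33.1, 28.1 and 30.7 in the MTA1 group. It fell (-1.04 ± 0.070) while GATD1 rose from 56.7 to 73.1 CPM (0.37 ± 0.050). It is 1 of 10 members whose present symbol ends in -DT, and without them 110 of 149 members (73.8%) were called, 39 higher and 71 lower, a count added after the data were seen.

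Of 57 members with a clone-based name, 14 were higher, 23 lower and 20 not called (64.9% called), with a median of -0.06. Of 11 members named LINC, 3 were higher and 7 lower (90.9% called). LINC00963 (-0.37 ± 0.050), LINC00467 (-0.59 ± 0.056) and LINC01137 (-0.90 ± 0.074) were among those lower. Of all members, 75.5% were called, 25.8% higher and 49.7% lower. RP11-596C23.6 showed the widest spread: it had 25.8, 15.3 and 10.0 CPM in Ctrl and 16.6, 17.2 and 14.3 in the MTA1 group. Its value was -0.08 ± 0.19 (adjusted p = 0.74), but 0.33 (adjusted p = 0.024) without Ctrl replicate 1 and -0.36 (adjusted p = 0.045) without Ctrl replicate 3, so its direction turns with the Ctrl library left out.

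Overlap with coding genes bears on what a member's count stands for. Only coding genes that were tested were considered. By GENCODE 29, 29 members share exon bases with such a gene on the same strand, and 40 with one on the opposite strand only. Another 18 lie within or across such a gene without shared exon bases, 69 overlap no tested coding gene, and 3 were not in that release. Overlap with coding genes that were not tested was not counted. Members that share exons on their own strand were 11 higher, 8 lower and 10 not called, with a median of -0.02. The remaining 130 were 30 higher, 71 lower and 29 not called, with a median of -0.21. The first set took 0.596% of all counts in Ctrl and 0.488% in the MTA1 group, and the second 0.606% and 0.544%. Both the count and the share without the first set were added after the data were seen. The first set is mixed in how much it shares. In it, 18 members share at least 60% of their exon bases, with 6 higher, 4 lower and 8 not called. Another 8 share under 15%, with 4 higher and 4 lower.

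**Figure D4:**
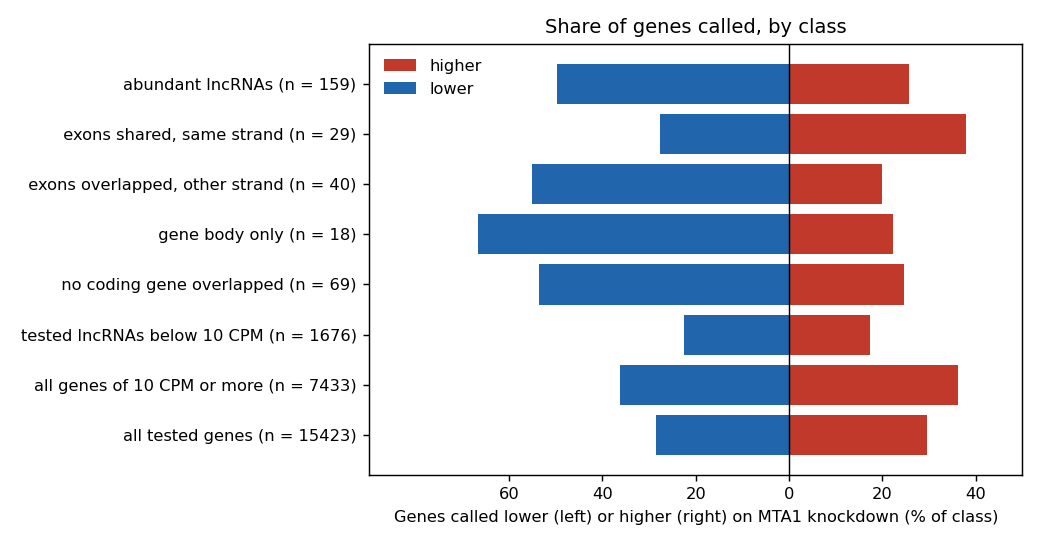
Share of genes called lower (left, blue) and higher (right, red) in the MTA1 group, in percent of each class, for the abundant lncRNAs, 4 overlap classes of them and 3 background sets. Overlap is with tested coding genes only. The lower share of the members is 49.7% against 36.3% of all genes of 10 CPM or more.

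CH17-66N5.1, the most abundant member, shares 64.1% of its exon bases with coding exons on its strand. It had 3049, 3251 and 3308 CPM in Ctrl and 2339, 2347 and 2206 in the MTA1 group. Each MTA1 library was lower (-0.48 ± 0.044, adjusted p = 1.5e-08). Reads of shared bases can be given to either gene, so its level is uncertain. By FPKM it stood at 8862 in Ctrl, far above RP11-197N18.2 at 274 and H19 at 379.

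RP11-197N18.2, next in abundance by CPM, had 1788, 1782 and 1783 CPM in Ctrl and 1225, 1334 and 1300 in the MTA1 group. It fell (-0.47 ± 0.042, adjusted p = 7.9e-09), and 97.5% of its exon bases are shared with coding genes on its strand. Of these, OGFOD2 stood at 20.4 and 24.3 CPM (0.26) and ARL6IP4, a splicing regulator, at 3.68 and 6.05 CPM (0.71), and both were called higher. Reads of shared bases can be given to any of these genes, so the levels and changes of each are uncertain. RP11-6N17.9 and RP11-793H13.8, whose exons are wholly shared, stood at 180 and 145 CPM in Ctrl. The first was called higher (0.13 ± 0.053, adjusted p = 0.034), a call that ended with DESeq2 (0.060) and without Ctrl replicate 1 (0.22), Ctrl replicate 3 (0.064) or MTA1 replicate 3 (0.20), and the second did not pass (0.02 ± 0.040). RP11-680A11.7, the last of the 12 most abundant and not in GENCODE 29, did not pass (0.05 ± 0.049).

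Across the 29 same-strand members and the coding gene with which each shares most bases, both were called in 14 pairs, in the same direction in 11 and in opposite directions in 3. Pearson's r of their log2 fold changes was 0.46. Across the 40 members with opposite-strand exons only, 14 pairs had both genes called, 11 of them in the same direction, and r was 0.34. The 69 members that overlap no tested coding gene were paired with the nearest such gene. In these, 28 pairs had both called, 13 in the same and 15 in opposite directions, with r of -0.095. The nearest gene was taken at any distance, which by GENCODE 29 reached 3904 kb for PURPL and DROSHA, so some of these pairs lie far apart. These correlations are across genes, which are not independent replicates, and partners that overlap can share reads.

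**Figure D5:**
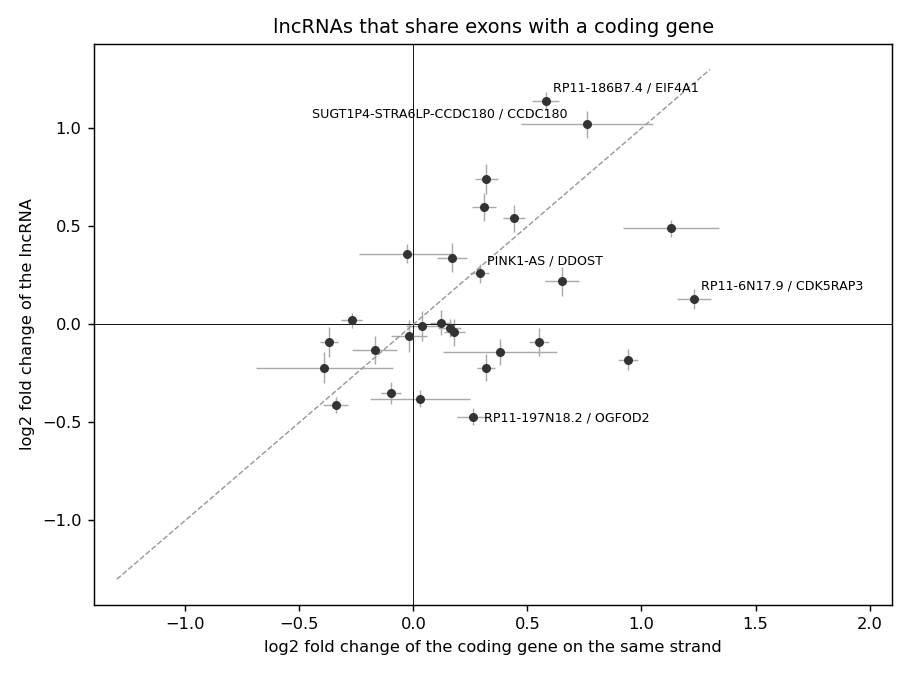
Each point is 1 lncRNA that shares exon bases with a coding gene on the same strand, CH17-66N5.1 left out, with its log2 fold change (MTA1 group over Ctrl) against that of the coding gene with the most shared bases. Bars are SE and the dashed line marks equal change; RP11-186B7.4 lies above it at 1.14, and RP11-197N18.2 lies below it at -0.47 while OGFOD2 is at 0.26.

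Genes that handle nuclear RNA changed in both directions. Of 12 m6A writers, readers and erasers 5 were higher and 5 lower, with ZC3H13 (0.62), METTL3 (0.45) and VIRMA (0.28) up and YTHDF2 (-0.43) down. A list of 12 tested genes held factors of the nuclear exosome and its adaptors and 1 gene outside that group, PAXIP1, which did not pass (-0.01). Of these, 5 were higher and 3 lower, with ZCCHC8, a subunit of the NEXT complex, from 13 to 20.5 CPM (0.66), MTREX (0.35) and SRRT (0.19) up and NCBP3 (-0.34) down. The medians of these lists, PAXIP1 included, were -0.08 and 0.03, against 0.00 for all genes tested. Among all genes of 10 CPM or more 72.5% passed, 36.1% higher and 36.3% lower.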

How the data were processed

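RNA of PC-3 cells was sequenced in 6 libraries, 3 labelled Ctrl and 3 labelled MTA1. Per the labels' protocols, total RNA was extracted with TRIzol, treated with DNase I and made into stranded paired-end libraries. The authors deposited whole-number counts per gene, not normalized, and FPKM values, which they had scaled for gene length and depth. Columns with the prefix shMTA1 were matched to MTA1 samples by name and NC columns to Ctrl by elimination. Aligner, genome build, annotation and strand setting of the counting: not given in the sources used here. DESeq2 is named, with no version or role, in the submitters' processing notes.

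The members were the genes typed lncRNA in the count table with a mean of 10 CPM or more over all 6 libraries, except symbols of small nucleolar RNA hosts, divergent transcripts and 5 further growth-linked hosts. The members and the gene lists were chosen with earlier results of these data known. The comparison used edgeR 4.0.16 in R 4.3.3 on the deposited counts (filterByExpr, TMM, quasi-likelihood F test, 2-sided, Benjamini-Hochberg over 15423 tested genes, threshold 0.05). The filter removed 15228 genes and kept 99.92% of the counts. CPM values use TMM-scaled library sizes. Single shares of counts were compared by an exact permutation test in scipy 1.17.1. The steps were tested on simulated counts.

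Exon overlaps, neighbours and hosted miRNAs come from GENCODE 29 by gene ID, which held 156 of the 159 members, and only relations were taken from it. For overlaps and neighbours, only tested coding genes were used. Named were MTA1, the 12 most abundant members, the 10 largest rises and the 10 largest falls (log2) among called members whose libraries did not overlap, list members, miRNA hosts, antisense members with their sense gene, the 3 genes on each side of the CPM minimum, and up to 4 genes of each list of non-members. Any other gene named was picked with its values in view. Alternatives were DESeq2 1.42.0 (size factors and Wald test), upper-quartile and library-size scaling, no filter, 1 CPM in 3 libraries, limma 3.58.1 (voom, and log2(FPKM + 0.1) and log2(FPKM + 1) of the deposited values), the replicate number as a block, a minimum fold of 1.2, a minimum of 5 or 20 CPM, each library left out, and the 20 most abundant and mitochondrial genes left out. Some items are not reported here.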

Additional observations from a re-analysis of the deposited data

How the results depend on the processing

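The count of 120 called members stayed between 110 and 121 under the other scalings, filters and tests, and leaving out 1 library gave 112 to 117. Of the 120, 99 kept their call and direction, 33 higher and 66 lower, under the 17 alternatives of scaling, filter, test, block and left-out libraries or genes, the minimum fold not among them. The 808 called lncRNAs became 586 to 947, and 706 to 754 with a library left out. Members past 2-fold were 12, between 11 and 13 with a library left out, 9 with library-size scaling, 9 with log2(FPKM + 0.1) and 6 with log2(FPKM + 1), and the cause was not tested. A minimum fold of 1.2 left 71 called members. Taking lncRNAs of 5 CPM or more gave 208 called of 291, and of 20 CPM or more 61 of 74, sets of other sizes. The share of counts differed by -0.17 percentage points, by -0.182 to -0.162 with a library left out, by -0.194 without the 20 most abundant and mitochondrial genes in the total, by -0.0617 without members that share same-strand exons and by -0.00754 without the 5 most abundant members, the last 2 added after the data were seen. RP11-596C23.6 turned from -0.08 to 0.33 without Ctrl replicate 1 and was -0.36 without Ctrl replicate 3, and the cause was not tested. Scaling by library size moved the median of all genes to 0.07 and gave 45 members higher and 70 lower.

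With the replicate number as a block 121 members were called, 42 higher and 79 lower, all 120 among them, and NEAT1 was added (adjusted p = 0.008). Members past 2-fold were 12 and lncRNAs called 808, as without the block. Same-numbered libraries correlated at 0.0666, -0.0207 and 0.0191 in their deviations, so the numbers were not taken as pairs. The SE of the members' log2 fold changes ran from 0.040 to 0.19.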
